A study of Homo sapiens with 24 samples.

Results

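The genes described here are 49 genes of the G1/S transition and of DNA replication, given as a list of symbols. Each of the 49 matched 1 of the 58735 gene identifiers in the count files. They were grouped by role into 8 cyclins and cyclin-dependent kinases of G1, 2 brakes on G1, 5 E2F factors, 11 genes of origin licensing, 4 of origin firing, 12 of the replication fork, 4 of nucleotide supply and 3 of histone supply and chromatin assembly. Polyadenylated RNA was sequenced from HT-144, an established human melanoma line derived from a metastasis, grown in medium with insulin, transferrin and selenium. The 6 groups, harvested 3 days after transfection, were mock-treated cells (Mock), a scramble siRNA (siNegative) and an siRNA pool for SREBF1 (siSREBF1), both at 50 nM, and a negative control antisense oligonucleotide (ASO-Neg) and 2 that target SREBF1 (ASO-SREBF1-S4 and ASO-SREBF1-S1), each at 5 nM. SREBF1 is the gene of SREBP-1, which turns on fatty acid synthesis, and the series asks for the specific effects of depleting it with such an oligonucleotide. The 4 files of a group were lanes of 1 library and were summed, so there was 1 library of 1 cell line per group, with 12916478 to 47900277 gene counts each.

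In G1 the D-type cyclins with CDK4 and CDK6, and then cyclin E with CDK2, inactivate the retinoblastoma protein and release E2F factors. E2F factors switch on the genes that load the MCM2 to MCM7 helicase onto origins, fire those origins, copy the DNA and make deoxynucleotides. In melanoma cells these genes are read as a sign of how many cells are about to replicate or are replicating. In bulk RNA, fewer cells in S phase and less of these RNAs per cell cannot be told apart.

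Promoters are shown first because E2F factors are known to bind at many of these genes. RefSeq promoters on GRCh38.p14 were matched by symbol for 41 of the 49 genes, and the 250 bases before the start were searched on both strands for the E2F words TTTCCCGC, TTTCGCGC, TTTGCCGC and TTTGGCGC. Only the first listed start of each gene was used, and its window can lie inside the gene. That of RB1 did (chromosome 13, 48476200 to 48476449), since the gene starts at 48303744. A match was found in 15 of the 41 genes (36.59%), against 2.79% of all 27305 promoters and 4.48% of the 11114 promoters of genes expressed here. Words on opposite strands can overlap, as in MCM6. The following 4 are examples that all hold a match, while 26 of the 41 genes hold none. E2F1 was chosen because it regulates the others and itself, and CDT1 as the gene that differed most between libraries. MCM6 was chosen for the most matches, and POLA1 because it was low in both SREBF1 oligonucleotides. Capitals mark the E2F words, and each runs 5′ to 3′ on the gene's own strand.
E2F1 (chr20:33686386-33686635, minus strand): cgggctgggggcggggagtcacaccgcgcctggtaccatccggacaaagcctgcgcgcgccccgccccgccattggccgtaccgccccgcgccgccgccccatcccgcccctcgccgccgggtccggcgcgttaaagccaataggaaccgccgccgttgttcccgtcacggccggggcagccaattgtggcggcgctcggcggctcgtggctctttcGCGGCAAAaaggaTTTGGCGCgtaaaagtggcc
CDT1 (chr16:88803539-88803788, plus strand): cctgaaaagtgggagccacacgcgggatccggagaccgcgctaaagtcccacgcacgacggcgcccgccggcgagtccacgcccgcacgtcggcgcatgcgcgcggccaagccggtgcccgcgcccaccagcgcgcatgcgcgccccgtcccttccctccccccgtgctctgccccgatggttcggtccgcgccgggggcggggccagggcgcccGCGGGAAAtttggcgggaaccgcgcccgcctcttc
MCM6 (chr2:135876444-135876693, minus strand): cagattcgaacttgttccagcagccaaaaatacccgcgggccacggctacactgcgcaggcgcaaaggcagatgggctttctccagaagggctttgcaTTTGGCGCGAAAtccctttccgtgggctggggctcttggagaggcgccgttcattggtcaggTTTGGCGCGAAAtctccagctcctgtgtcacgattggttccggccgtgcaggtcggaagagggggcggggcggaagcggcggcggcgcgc
POLA1 (chrX:24693668-24693917, plus strand): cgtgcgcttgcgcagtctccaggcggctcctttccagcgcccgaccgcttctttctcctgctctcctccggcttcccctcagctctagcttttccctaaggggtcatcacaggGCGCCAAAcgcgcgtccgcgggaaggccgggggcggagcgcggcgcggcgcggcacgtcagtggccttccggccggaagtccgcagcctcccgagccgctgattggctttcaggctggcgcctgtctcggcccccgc
The E2F1 window holds 2 E2F words within 33 bases of the start, CDT1 holds 1 and POLA1 holds 1. MCM6 holds 4, as overlapping words on the 2 strands at 2 places. The CCAAT box (CCAAT) stood in 22 of the 41 promoters (53.66%, against 33.04% of all and 35.47% of those of expressed genes). The cell cycle element TTTGAA stood in 2 (4.88%, against 13.57% and 8.47%) and the sterol element TCACNCCAC in 0 (against 0.88% and 0.83%).

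SREBF1, the targeted gene, was first checked. As CPM, read counts relative to library size with TMM scaling in edgeR, it was 217 in ASO-Neg, 249 in siNegative and 232 in Mock. It stood at 54.9 CPM in siSREBF1, 70.3 in ASO-SREBF1-S4 and 76.9 in ASO-SREBF1-S1, so the 3 targeting libraries matched their labels. Of 10 melanocytic markers 9 averaged at least 1 CPM, with a summed level of 4336 to 6496 CPM, while the 5 immune markers together stayed at 0.627 to 2.83 CPM. Lanes of 1 library differed by about counting noise (chi-square over its degrees of freedom 1.02 to 1.05), against 2.03 to 8.69 for lanes of different libraries.

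HT-144 cells expressed 48 of the 49 genes, with 119 to 27139 counts per library. The exception was CCND2, cyclin D2, with 2 counts in Mock, 1 in siNegative and 0 in each of the other libraries, where 0 allows up to 0.0621 CPM in the deepest and 0.224 in the shallowest. Per kilobase of exon, CDK2 was highest at 139 CPM per kb averaged over the libraries (122 to 168), and its range did not meet that of CDK4, the next at 89.0. CDK2 lies within the span of PMEL, an abundant melanosome gene on the opposite strand. CDK4, CCND1 (83.9), the sliding clamp gene PCNA (82.2), MCM7 (77.3) and FEN1 (72.5), which trims Okazaki flaps, followed with ranges that overlapped from each to the next. At the low end stood the catalytic subunit of the priming polymerase, POLA1 (2.36 CPM per kb), E2F2 (2.41), E2F8 (2.70), CCNE2 (2.85) and GINS1 (3.56). Of the 49 genes, 17 averaged at least 20 CPM per kb and 21 averaged under 10. Some counts are less certain than others: FEN1 overlaps FADS2, PRIM1 overlaps NACA, and POLD1 and CCND2 each overlap a coding gene with no symbol, all on the same strand.

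The level of most genes moved little. The highest library was on median 1.30 times the lowest, and the ratio was under 1.5 for 45 of the 48 expressed genes. RPA2, a subunit of the single-strand binding protein, was steadiest at 1.12 times, and CDT1, which brings the helicase to origins, was least steady at 2.38 times. ASO-SREBF1-S4 was the lowest library for 36 of the 48 genes, or 75%, against 21.8% of all 15123 genes tested, and the highest for 0 (21.3%). ASO-SREBF1-S1 was the highest for 23 genes, or 47.9%, against 19.1% of all genes, and the lowest for 1 (17.4%). For comparison, siSREBF1 was the highest for 5 genes, or 10.4%, against 19% of all genes. The 2 oligonucleotides for the same RNA thus lay at opposite ends for much of the list. Relative to each gene's mean over the 6 libraries, the median of the 48 genes was -0.19 on the log2 scale in ASO-SREBF1-S4 and 0.09 in ASO-SREBF1-S1, and between -0.01 and 0.05 in the others. Summed over all 49 genes, the level was 4147 CPM in ASO-SREBF1-S4 and 4651 to 4863 CPM in the other 5 libraries.

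**Figure D1:**
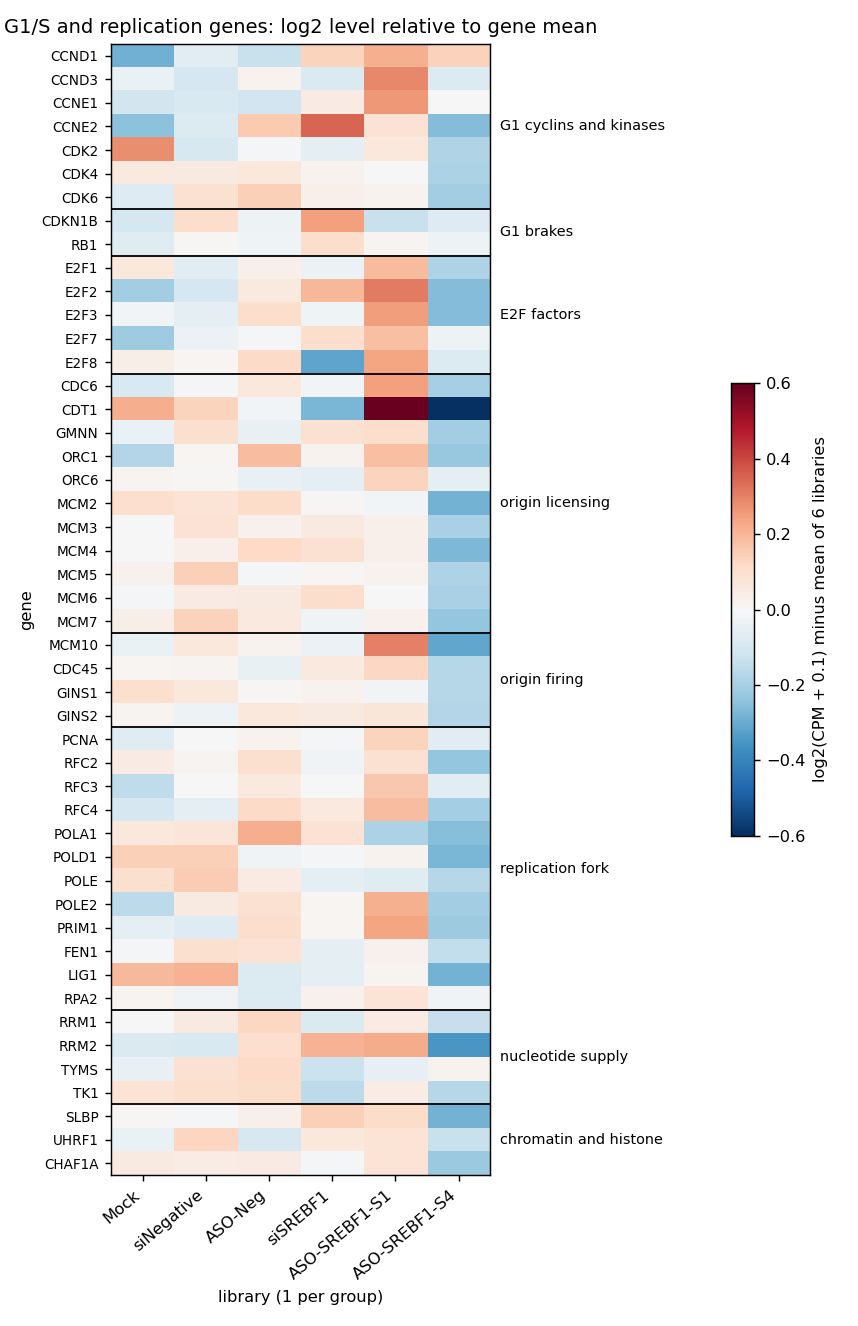
Each row is 1 of 48 expressed genes, ordered by role, and each column 1 library. Color gives the log2 level, as log2(CPM + 0.1), minus the gene's mean over the 6 libraries, with values beyond 0.6 either way drawn at 0.6. The ASO-SREBF1-S4 column is the lowest for 36 genes and the ASO-SREBF1-S1 column the highest for 23.

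The comparison with 3 libraries on each side took siSREBF1 and both SREBF1 oligonucleotides together, against Mock, siNegative and ASO-Neg, and asked what the 3 reagents share. No G1/S or replication gene passed. Of 48 tested, 0 were higher and 0 lower at an adjusted p of 0.05 in edgeR's quasi-likelihood test, where 0.0198% of all 15123 genes were higher and 0.0397% lower. At an unadjusted p under 0.05, 1 gene was higher (4.93% of all genes) and 3 lower (5.3%). The DESeq2 Wald test called 1, CCND1, where it called 0.483% of all genes higher. The median log2 ratio of the 48 was -0.01, against 0.01 over all genes, and 27 of the 48 were below 0 (48.5% of all genes). In 5 genes the targeting libraries all lay below the controls (8.54% of all genes) and in 2 all above (8.86%). Each side mixes reagents, Mock stands only among the controls, and the labels name no separate cultures, so these p-values measure the spread between libraries and their reagents.

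CCND1, cyclin D1 (ENSG00000110092, chromosome 11, 69641156 to 69654474), was the gene nearest to the threshold and the highest of the list by difference. Its level was 324 CPM in Mock, 361 in ASO-Neg and 379 in siNegative, and 435 in siSREBF1, 437 in ASO-SREBF1-S4 and 459.8 in ASO-SREBF1-S1. Both control reagents thus lay above Mock. The log2 ratio was 0.22 for siNegative over Mock, beside 0.20 for siSREBF1 over siNegative. The sides did not overlap, with 355 ± 27.9 CPM in the controls and 444 ± 13.8 in the targeting libraries (SD, n = 3 each). For targeting against control the log2 ratio was 0.32 (SE 0.078), and edgeR's adjusted p was 0.228, above the threshold of 0.05. Without a filter on low counts it was 0.0449, and in the DESeq2 Wald test the adjusted p was 0.0493. Over all alternatives tried it ran from 0.0449 to 0.894, the last with chemistry as a term. Without the filter, edgeR called 0.915% of all 31378 genes higher, against 0.0198% of 15123 with it.

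CCNE1, cyclin E1, was the other gene whose targeting libraries all lay above the controls. Its level was 14.3 CPM in Mock, 14.5 in siNegative, 14.2 in ASO-Neg, 15.9 in siSREBF1, 15.4 in ASO-SREBF1-S4 and 18.5 in ASO-SREBF1-S1. By log2 ratio it was 0.22 higher in the targeting libraries (SE 0.10, edgeR adjusted p = 0.507). POLE, the leading-strand polymerase, lay on the low side, at 104, 108 and 101 CPM in Mock, siNegative and ASO-Neg and 94.0, 92.8 and 86.6 CPM in siSREBF1, ASO-SREBF1-S1 and ASO-SREBF1-S4. That put the log2 ratio at -0.20, with an SE of 0.067 and an adjusted p of 0.348 in edgeR. TK1, the thymidine kinase of the salvage route, stood at 98.3, 99.7 and 100.4 CPM in the same controls and at 83.3, 95.8 and 82.6 CPM in the same targeting libraries (log2 ratio -0.19, edgeR adjusted p = 0.44). CDK4, MCM2 and MCM7 were the other genes with all targeting libraries below the controls. None of these passed, and each difference was under 0.25 on the log2 scale.

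The median of the list, though not the count past the adjusted threshold, moved with the oligonucleotide left out of that comparison. Without ASO-SREBF1-S1 the median of the list was -0.106, with 40 of 48 genes below 0 (49.2% of all genes). At an unadjusted p under 0.05, 1 gene was then higher and 8 lower, where 2387 of 15310 genes passed either way. Without ASO-SREBF1-S4 it was 0.065, with 18 of 48 below 0 (49.1% of all genes), and 5 genes were higher and 1 lower unadjusted, where 1608 of 15454 genes passed either way. Leaving out any 1 library gave 0 genes past the adjusted threshold in edgeR. The oligonucleotide pair against the controls also called 0 of 48 (0% of all 16297 genes higher and 0.043% lower, edgeR adjusted p), with POLA1 at 0.223 and CCND1 at 0.229 the smallest adjusted p values. At an unadjusted p under 0.05, 1 gene was higher there (5.34% of all genes) and 3 lower (5.86%). With no filter on low counts that comparison called 1, CCND1, where it called 0.915% of all 31378 genes higher and 0.88% lower. For siSREBF1 against the oligonucleotide pair edgeR called 0 of 48 at an adjusted p of 0.05 (0.0552% of all genes higher and 0.092% lower) and, unadjusted, 2 higher (4.39%) and 0 lower (4.32%), with 19 of 48 ratios below 0 (50.8% of all genes). In the interaction of chemistry and target, 0 of 48 genes passed in edgeR, with 0 at an unadjusted p under 0.05 (0.893% of all genes higher and 0.443% lower) and 1 residual degree of freedom. No other tool was run on it.

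The single-library comparisons have no replicate check. A gene is counted as lower or higher there if its ratio was at least 1.2-fold, its 95% counting interval lay on that side of equality and it reached 10 CPM in 1 of the 2 libraries, which 48 of the 49 genes did. Counting intervals cover sampling of reads only, so they do not carry the variation between cultures.

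In ASO-SREBF1-S4 over ASO-Neg, 20 of 48 genes were lower and 1 was higher. The rule called 11.1% of all 9851 genes lower and 9.72% higher, so 41.7% of this list stood against 11.1%. The median log2 ratio was -0.24, against -0.02 over all genes, and 45 of 48 genes were below 0 (54.8% of all genes). With Mock as the control in its place 14 genes were lower (14.3% of all genes), and with siNegative 16 were (11.8%). Scaled to total gene counts without TMM, 9 were lower (6.59% of all genes), with a median of -0.18 beside 0.05 for all genes. With TMM and a 1.5-fold rule, 1 was lower (1.38% of all genes) and 0 higher (2.18%).

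**Figure D2:**
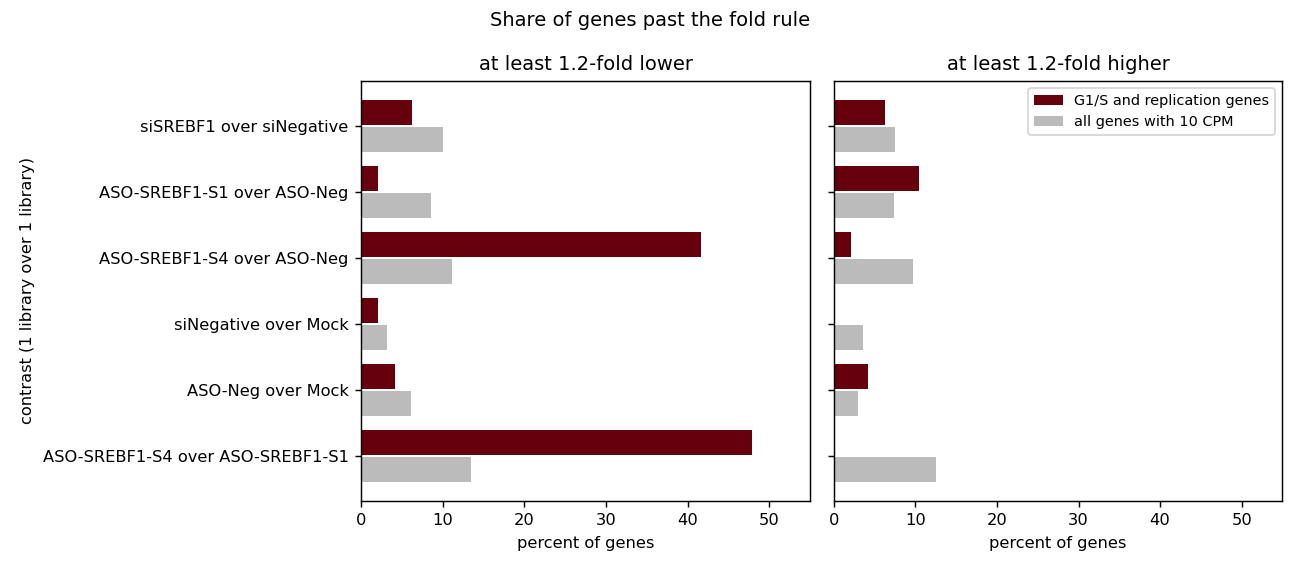
Bars give the percent of genes at least 1.2-fold lower (left) or higher (right) in each contrast of 1 library over 1 library, for the 48 G1/S and replication genes (dark) and for all genes reaching 10 CPM (grey). In ASO-SREBF1-S4 over ASO-Neg 41.7% of the list and 11.1% of all genes were lower.

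Of the 11 origin licensing genes, 5 were lower in ASO-SREBF1-S4 over ASO-Neg and all 11 were below 0. CDT1 (ENSG00000167513, chromosome 16, 88803789 to 88809258) had 29.5 CPM in ASO-Neg, 32.6 in siNegative, 34.6 in Mock, 24.6 in siSREBF1, 18.9 in ASO-SREBF1-S4 and 44.9 in ASO-SREBF1-S1. It was lowest in one SREBF1 oligonucleotide and highest in the other, with the controls between. Over ASO-Neg its log2 ratio was -0.64 (95% counting interval -0.85 to -0.44) in ASO-SREBF1-S4 and 0.61 (0.47 to 0.75) in ASO-SREBF1-S1. Over siNegative it was -0.41 (-0.60 to -0.21) in siSREBF1. Against each other the 2 oligonucleotide libraries differed in CDT1 by -1.25 (-1.43 to -1.08), the widest gap of the list. Its promoter above carries 1 E2F word, and the part of that word in these levels was not tested.

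The helicase genes were lower together in ASO-SREBF1-S4. MCM2 to MCM7 summed to 1161 CPM in Mock, 1222 in siNegative, 1192 in ASO-Neg, 1169 in siSREBF1, 976 in ASO-SREBF1-S4 and 1160 in ASO-SREBF1-S1. ASO-SREBF1-S4 was at 81.9% of ASO-Neg, where the other 4 were at 97.3% to 102.5%. MCM2 stood at 110.4, 109 and 111 CPM in Mock, siNegative and ASO-Neg, at 103 and 102 in siSREBF1 and ASO-SREBF1-S1, and at 84.3 in ASO-SREBF1-S4. MCM4 stood at 219, 224 and 238 CPM in the same controls, at 233 and 224 in siSREBF1 and ASO-SREBF1-S1, and at 182 in ASO-SREBF1-S4. For both genes the first 5 libraries lay close together and ASO-SREBF1-S4 lay below them. The ratios over ASO-Neg were -0.40 for MCM2, -0.39 for MCM4, -0.29 for MCM7, -0.25 for MCM6, -0.22 for MCM3 and -0.17 for MCM5 on the log2 scale. The last 3 fell short of 1.2-fold. Of the loaders, ORC1, a subunit of the origin recognition complex, was at 20.9 CPM in ASO-Neg and 15.7 in ASO-SREBF1-S4, CDC6 at 91.6 and 76.4, and ORC6 at 37.7 and 37.4. GMNN, geminin, which blocks CDT1, was at 28.9 and 25.7 CPM, with a counting interval across 0 (-0.36 to 0.03). In Mock ORC1 stood at 16.3 CPM, near its level in ASO-SREBF1-S4, while CDC6 stood at 82.3 and ORC6 at 39.3.

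**Figure D3:**
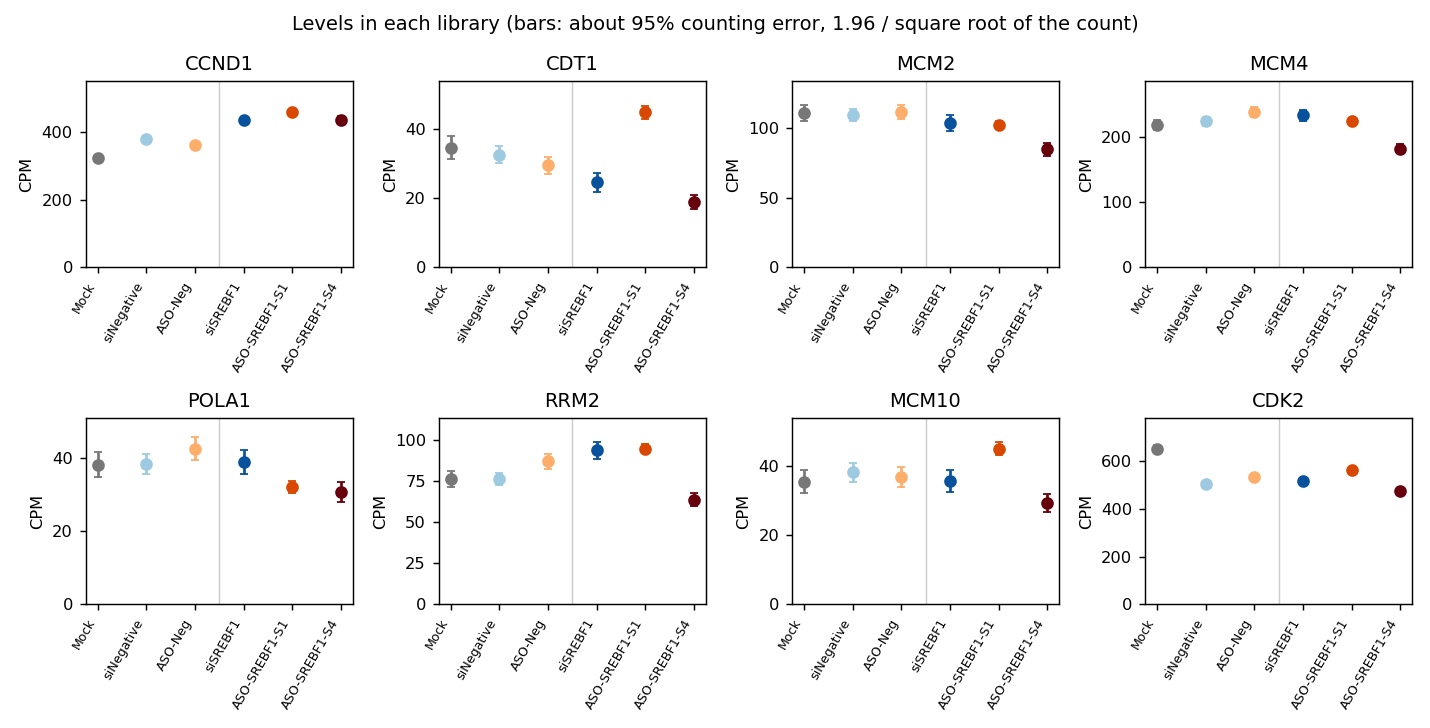
Points give the scaled CPM of 8 genes in each library, controls to the left of the grey line and SREBF1-targeting libraries to the right, with bars for about 95% counting error. CDT1, MCM2, MCM4, RRM2 and MCM10 were lowest in ASO-SREBF1-S4, CCND1 was higher in all 3 targeting libraries, POLA1 was low in both SREBF1 oligonucleotides, and CDK2 was highest in Mock.

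The 4 genes of origin firing, which turn the loaded helicase into a moving one, were all below 0 in ASO-SREBF1-S4 over ASO-Neg. MCM10 was the 1 past the rule, at 35.4, 38.1 and 36.9 CPM in Mock, siNegative and ASO-Neg, 35.5 in siSREBF1, 29.3 in ASO-SREBF1-S4 and 44.9 in ASO-SREBF1-S1. Like CDT1 it had its highest and lowest values in the 2 SREBF1 oligonucleotides, which differed by -0.61 (95% counting interval -0.76 to -0.47). GINS1, the firing gene with the smallest p in the replicated comparison, stood at 30.4, 29.8 and 28.6 CPM in the controls in that order and at 28.9, 28.1 and 25.3 in siSREBF1, ASO-SREBF1-S1 and ASO-SREBF1-S4. Over ASO-Neg its counting interval in ASO-SREBF1-S4 crossed 0 (-0.37 to 0.02).

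Of the 12 fork genes, 5 were lower in ASO-SREBF1-S4 over ASO-Neg: POLA1, RFC2, RFC4, PRIM1 and POLE2. RFC2 and RFC4 are subunits of the clamp loader, PRIM1 is the primase that starts each strand, and POLE2 is the partner of POLE. Their ratios ran from -0.47 for POLA1 to -0.30 for POLE2. PCNA was at 117 CPM in ASO-Neg, 109.7 in ASO-SREBF1-S4 and 126 in ASO-SREBF1-S1, with a log2 ratio over ASO-Neg of -0.09 in ASO-SREBF1-S4 and a counting interval that crossed 0. RPA2 was the 1 fork gene above 0, at 0.06. The fork genes together summed to 86.4% of ASO-Neg.

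Nucleotide supply had 3 of 4 genes lower in ASO-SREBF1-S4 over ASO-Neg. RRM2, the S-phase subunit of ribonucleotide reductase, stood at 76.5 CPM in Mock, 76.3 in siNegative, 87.2 in ASO-Neg, 94.0 in siSREBF1, 63.8 in ASO-SREBF1-S4 and 94.8 in ASO-SREBF1-S1. It was thus highest in 2 of the SREBF1-targeting libraries and lowest in the other. RRM1, the other subunit, was at 167 CPM in ASO-Neg and 139 in ASO-SREBF1-S4, and TK1 had a log2 ratio of -0.28. TYMS, thymidylate synthase, was at 158 and 148 CPM, a ratio of -0.09.

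E2F factors were lower in 2 of 5 cases in ASO-SREBF1-S4 over ASO-Neg. E2F3, an activator, stood at 37.5, 36.4 and 40.7 CPM in Mock, siNegative and ASO-Neg, 37.2 in siSREBF1, 31.5 in ASO-SREBF1-S4 and 45.0 in ASO-SREBF1-S1. E2F2, another activator, stood at 11.3, 12.1 and 13.6 CPM in those controls, 15.0 in siSREBF1, 10.9 in ASO-SREBF1-S4 and 16.2 in ASO-SREBF1-S1. E2F1 was at 49.6 CPM in ASO-Neg, 42.6 in ASO-SREBF1-S4 and 55.4 in ASO-SREBF1-S1. All 5 E2F factors had their highest value in ASO-SREBF1-S1, and the 3 activators had their lowest in ASO-SREBF1-S4. E2F7, a repressor that E2F1 itself induces, did not share that low end. It was at 42.0 CPM in ASO-Neg and 41.4 in ASO-SREBF1-S4, and lowest in Mock at 36.5. E2F8 was lowest in siSREBF1. SLBP, the histone mRNA binding protein, and CHAF1A, of the histone chaperone that follows the fork, were lower over ASO-Neg at -0.32 and -0.27, and UHRF1, which guides DNA methylation to new DNA, was at -0.04.

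The genes that act before S phase divided. CCND1 alone of the list was called higher in this contrast, at 0.27 (95% counting interval 0.22 to 0.32). CDK6, its kinase partner, was lower at -0.35 (-0.44 to -0.26), with 126 CPM in ASO-Neg and 99.0 in ASO-SREBF1-S4. CCNE2 was lower at -0.42 (-0.72 to -0.13), with 13.8 and 10.3 CPM. For both genes ASO-Neg was the highest control. CDK6 stood at 108 CPM in Mock and 122 in siNegative. CCNE2 stood at 10.4 CPM in Mock and 11.7 in siNegative, so its ASO-SREBF1-S4 level was about that of Mock. The brakes lay at their control level: RB1, the retinoblastoma gene, was at 109 CPM in both ASO-Neg and ASO-SREBF1-S4, and CDKN1B, p27, at 33.4 and 32.3 CPM. Across all libraries RB1 ranged from 106 CPM in Mock to 119.7 in siSREBF1.

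**Figure D4:**
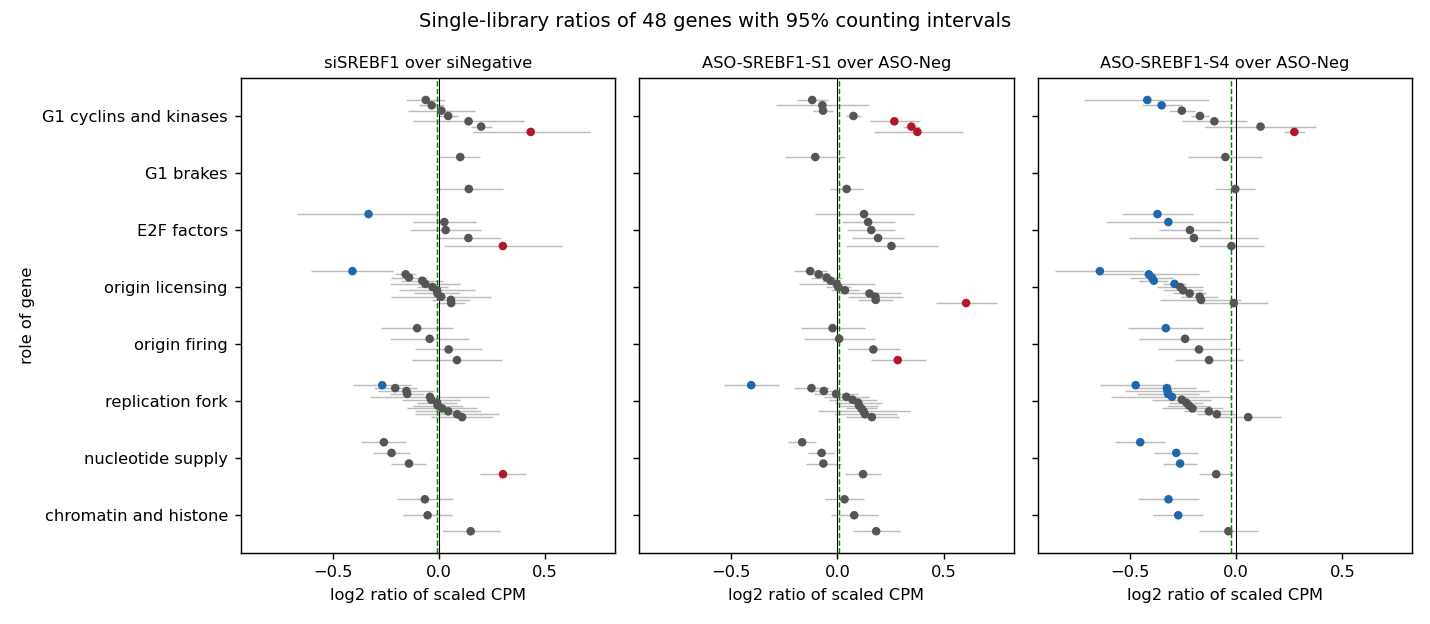
Points give the log2 ratio of each of 48 genes in the 3 matched contrasts, by role, with 95% counting intervals, blue for called lower and red for called higher. The green dashed line is the median of all genes in that contrast. In ASO-SREBF1-S4 over ASO-Neg 45 of 48 points lie below 0, with CCND1 the 1 red point.

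ASO-SREBF1-S1 over ASO-Neg gave another set, with 5 of 48 genes higher and 1 lower. The rule called 7.37% of all 9757 genes higher and 8.58% lower, so the list's 10.4% higher was near that share. The higher genes were CDT1, CCNE1 (0.38), CCND1 (0.35), MCM10 (0.28) and CCND3 (0.27), cyclin D3, which stood at 44.4 CPM in ASO-Neg and 53.5 in ASO-SREBF1-S1. POLA1 was the lower gene. The median log2 ratio was 0.07, against 0.01 over all genes. The count of higher genes depended on the control: it was 16 over Mock (8.65% of all genes) and 8 over siNegative (9.32%), with 0 lower in both.

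In siSREBF1 over siNegative, 3 of 48 genes were higher and 3 lower. The rule called 7.46% of all 9862 genes higher and 9.96% lower, against 6.25% of the list each way, and 26 of 48 genes were below 0 (51.5% of all genes). CCNE2 was the highest at 0.43 (95% counting interval 0.16 to 0.71), going from 11.7 to 15.8 CPM, followed by RRM2 at 0.302 and E2F2 at 0.301. CDT1 was lowest, followed by E2F8, a repressor of the E2F family, at -0.33 (11.2 and 8.87 CPM) and LIG1, which seals Okazaki fragments, at -0.27 (63.1 and 52.5 CPM). The interval of E2F8 reached -0.006. Over Mock, 6 genes were higher and 2 lower (9.36% and 12.3% of all genes). No gene of the list was called in the same direction in all 3 matched contrasts, and 23 of 48 were called in none of them.

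The 2 SREBF1 oligonucleotide libraries were also set against each other. In ASO-SREBF1-S4 over ASO-SREBF1-S1, 23 of 48 genes were lower and 0 higher, where 13.5% of all 9872 genes were lower and 12.5% higher. The median was -0.26, against -0.03 over all genes, and 46 of 48 were below 0 (56.3%). Of the 20 genes lower in ASO-SREBF1-S4 over ASO-Neg, 15 were also lower in this contrast, which uses the same ASO-SREBF1-S4 library. After CDT1 and MCM10 the widest gap was that of E2F2 (-0.57, 95% counting interval -0.82 to -0.34). SREBF1 itself differed by -0.13 (-0.23 to -0.03) between them.

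The control reagents left the list close to Mock. In siNegative over Mock 0 of 48 genes were higher and 1 was lower (3.54% and 3.14% of all genes), and in ASO-Neg over Mock 2 were higher and 2 lower (3% and 6.15%). The first contrast had 18 of 48 genes below 0 (50.4% of all genes) and the second 15 (46.8%). CDK2 was lower in both, with 503 CPM in siNegative, 533 in ASO-Neg and 652 in Mock. In ASO-Neg over Mock CCNE2 (0.40) and ORC1 (0.36) were the higher genes and LIG1 (-0.28) the other lower one. LIG1 stood at 62.4 CPM in Mock, 63.1 in siNegative, 51.6 in ASO-Neg, 52.5 in siSREBF1, 44.7 in ASO-SREBF1-S4 and 55.2 in ASO-SREBF1-S1.

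A further 65 replication and G1/S genes outside the list were read the same way. In ASO-SREBF1-S4 over ASO-Neg 17 of the 58 that reached 10 CPM were lower and 1 was higher, with a median of -0.17, and 49 of the 58 were below 0, where 11.1% of all genes were lower and 54.8% below 0. In the replicated comparison 0 of 62 passed in edgeR, with 3 higher and 2 lower at an unadjusted p under 0.05, no larger a share than the 4.93% and 5.3% of all genes. The genes with the smallest p are given as a description. DTYMK, which phosphorylates dTMP, had values of 33.5, 34.1 and 35.2 CPM in Mock, siNegative and ASO-Neg and 30.5, 30.3 and 27.2 in siSREBF1, ASO-SREBF1-S1 and ASO-SREBF1-S4 (log2 ratio -0.22, edgeR adjusted p = 0.369). ORC4 (0.22) and E2F5 (0.59, under 3 CPM) had the next smallest p values.

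CDKN1A, the p21 inhibitor of cyclin-dependent kinases and a p53 target, had the smallest p of those 65. It stood at 176 CPM in Mock, 165 in siNegative, 164 in ASO-Neg, 174 in siSREBF1, 280.4 in ASO-SREBF1-S4 and 228 in ASO-SREBF1-S1 (log2 ratio 0.44, edgeR adjusted p = 0.344). Both SREBF1 oligonucleotides lay above every other library, ASO-SREBF1-S4 furthest. Over ASO-Neg, 17 of 23 p53 targets were higher in ASO-SREBF1-S4 (median 0.39, where 9.72% of all genes were higher) and 12 of 23 in ASO-SREBF1-S1 (median 0.27, where 7.37% were). Mitosis and G2/M genes were lower in 16 of 28 cases in ASO-SREBF1-S4 over ASO-Neg (median -0.28), against 11.1% of all genes. That control was itself high for them. ASO-Neg was the highest library for 23 of the 30 (76.7%, against 11.9% of all genes), and 27 of 28 were above 0 in ASO-Neg over Mock (median 0.14). ASO-SREBF1-S4 was the lowest library for 20 of the 30 (66.7%, against 21.8%). In ASO-SREBF1-S1 over ASO-Neg 2 of 28 were lower (7.14%, median -0.13), near the 8.58% of all genes, while 27 of 28 were below 0 (47.7% of all genes). The 10 melanocytic markers summed to 4336 CPM in ASO-SREBF1-S4, the lowest of the 6 libraries. Their sum was close to that in siSREBF1, at 4405 CPM, and was 4999 to 6496 in the others. The 8 fibroblast markers summed to 978 CPM in ASO-SREBF1-S4, the highest (674 to 927 in the others). Most of the latter sum was COL1A2 (874 CPM in ASO-SREBF1-S4), while LUM, of the same list, was lowest there at 50.5 CPM. The part of these genes in the lower replication genes was not tested.

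Within the list, genes with and without one of the exact E2F words in the searched window were both lower. Lack of such a word there does not show that a gene lacks an E2F site. Of the ASO-SREBF1-S4 ratios over ASO-Neg, those of the 15 genes with a match had a median of -0.22 with 5 called lower, and those of the 26 without one had a median of -0.26 with 13 called lower.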

How the data were processed

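For each lane the authors deposited a file of read counts by gene, as whole numbers, with unstranded and per-strand columns. Reads were aligned with STAR 2.6.1a to GRCh38 and checked with FastQC, per the submitters' processing notes, and the annotation they used is not given in the sources used here. The reverse-strand column was used, since the other strand held 6.47% to 7.79% of the counts of both. The 4 summary lines per file name no gene and were left out. Names, positions and exon lengths came from GENCODE release 44 on GRCh38, which matched 58207 of 58735 identifiers and 99.93% of counts.

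The 24 files were summed to 6 libraries. Tests used edgeR 4.0.16 in R 4.3.3 (TMM, filterByExpr, 2-sided quasi-likelihood F test, Benjamini-Hochberg over all genes tested), with DESeq2 1.42.0 as an alternative. The interaction fit used 5 libraries and left out Mock. Single-library log2 ratios used a prior count of 2 and exact counting intervals. The edgeR test of targeting against control and the single-library rule were tested on simulated data. The other fits and DESeq2 were not. The simulated counts for the single-library rule held counting noise only, without variation between cultures. Alternatives covered scaling, filter, strand column, prior count, fold rule, chemistry, libraries, lanes and, chosen after seeing the data, the control library. Named genes were those past a threshold, up to 3 extremes each way per contrast, the smallest p per role, and the highest and lowest level. Other genes were added after their values were seen. The genes and lists were chosen with earlier results of these data known.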

Additional observations from a re-analysis of the deposited data

How the results depend on the processing

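No paired analysis was possible because the shared replicate numbers mark sequencing lanes, which were summed into 1 library per group. Counts were taken as unchanged within 1.5 times and medians within 0.05 on the log2 scale. In the 3 targeting against the 3 control libraries, 1 gene passed instead of 0 without the filter on low counts and 1 in DESeq2 (CCND1 in both), and the median ranged from -0.106 to 0.065 when 1 library was left out. The oligonucleotide pair against the controls gave 1 instead of 0 without the filter. Without that filter edgeR called 0.915% of all 31378 genes higher in each of these comparisons. With RLE scaling and with chemistry as a term, 0 genes passed.

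Scaled to total counts, ASO-SREBF1-S4 over ASO-Neg had 9 genes lower (6.59% of all genes) and a median of -0.18, and siSREBF1 over siNegative had 1 lower (7.52%). At 1.5-fold, 1 gene was lower (1.38% of all genes) and 0 higher (2.18%) in ASO-SREBF1-S4. In ASO-SREBF1-S1 1 was higher (0.779%) and 0 lower (1.47%). There were 0 either way in siSREBF1 (1.28% higher and 1.4% lower), siNegative over Mock (0.398% and 0.0612%) and ASO-Neg over Mock (0.123% and 0.44%). In ASO-SREBF1-S4 over ASO-SREBF1-S1 2 were lower (1.47%). Leaving out 1 lane gave 1 to 3 lower in siSREBF1 (9.8% to 10.1% of all genes) and 0 to 1 higher in ASO-SREBF1-S4 (9.51% to 9.93%). It gave 0 to 2 higher in siNegative over Mock (3.43% to 3.71%). In ASO-Neg over Mock it gave 2 to 4 higher (3.33% to 3.62%) and 1 to 2 lower (5.89% to 6.14%). Unstranded counts gave 1 higher in ASO-Neg over Mock (2.97% of all genes). With Mock as the control, siSREBF1 had 6 higher (9.36% of all genes), ASO-SREBF1-S1 16 higher (8.65%) and 0 lower (11%), and ASO-SREBF1-S4 a median of -0.18. With siNegative as the control, ASO-SREBF1-S1 had 8 higher (9.32% of all genes) and 0 lower (11.6%) and ASO-SREBF1-S4 0 higher (8.85%). Except where an alternative's construction shows it, the cause was not tested. Depth limits CCND2, at 2 counts or fewer, and genes near 10 CPM, where 1.2-fold is close to counting error.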

Other observations

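POLA1, the catalytic subunit of the polymerase that begins each new strand, was low in both SREBF1 oligonucleotides and not in the siRNA pool. Its level was 38.1 CPM in Mock, 38.3 in siNegative, 42.4 in ASO-Neg and 38.7 in siSREBF1, against 30.5 in ASO-SREBF1-S4 and 32.0 in ASO-SREBF1-S1. Over ASO-Neg the log2 ratios were -0.47 (95% counting interval -0.64 to -0.31) and -0.41 (-0.54 to -0.28). In edgeR the oligonucleotide pair against the controls gave -0.34 (adjusted p = 0.223), and siSREBF1 against the pair had an adjusted p of 0.485, so neither difference passed. Among the 48 expressed genes it was the 1 called lower in ASO-SREBF1-S1.

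CDK2 (chromosome 12, 55966781 to 55972789, plus strand) lies within the span of PMEL (55954105 to 55973317, minus strand), a melanosome gene. Both were highest in Mock, with 652 CPM for CDK2 and 3527 for PMEL, against 474 to 562 for CDK2 and 2048 to 2990.0 for PMEL in the other libraries. CDK2 was 18.5% to 25.3% of PMEL. ACTB, taken as a gauge of reads on the wrong strand, had 0.623% to 1.83% of its counts on the other strand, the most in Mock. The part of PMEL reads in the CDK2 counts was not tested further.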
